A study of Mus musculus with 12 samples.

Results

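The growth hormone receptor and STAT5 axis was examined in mouse liver through 8 genes chosen by symbol. They were the receptor genes Ghr and Prlr, the transcription factor genes Stat5a and Stat5b, the feedback genes Socs2 and Cish, and the transcriptional regulators Bcl6 and Cux2. All 8 were found, each as a single row, among the 55357 genes of the count table, and all 8 were among the 17358 genes with enough counts to be tested.

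Growth hormone binds its receptor on hepatocytes and activates the kinase JAK2, which phosphorylates STAT5 proteins. Phosphorylated STAT5 dimers enter the nucleus and induce genes such as Igf1, Socs2 and Cish, and the proteins of the latter pair dampen the signal in turn. In rodents the pituitary releases the hormone in pulses in males and more continuously in females, and this difference sets the sex-biased expression of many liver genes. BCL6 is a repressor that binds many STAT5 sites and is more abundant in male liver, while CUX2 is a regulator of sex-biased genes that is largely restricted to female liver.

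RNA-seq was carried out on the livers of 12 male C57BL/6J mice, which fell into 4 groups by genotype and diet. Both genotypes carried floxed Ppara alleles (PPARafl/fl), and WT mice had no Cre transgene (AlbuminCre+/+), whereas KO mice carried AlbuminCreTg/+. The albumin promoter drives Cre in hepatocytes, so other liver cells of KO mice keep Ppara. From 7 weeks of age the mice received chow or CDAHFD, a choline-deficient, amino acid-defined diet rich in fat, for 6 weeks, until 13 weeks of age. WT chow had 4 libraries, WT CDAHFD 3, KO chow 2 and KO CDAHFD 3. The mice are described as 3 per group in the study's methods, and in the labels the second of the KO chow libraries, replicate 2 here, is numbered 3. The labels do not say that each library came from a separate mouse, which was assumed, so p-values measure the spread between these libraries.

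Total counts per library ran from 29906785 to 43551003. Levels are given as CPM, counts relative to the library total after scaling by edgeR's TMM method. Ppara itself had 96.2 to 238 CPM in WT chow, 59.5 to 75.5 in WT CDAHFD, 14.4 and 38.7 in KO chow and 20.7 to 51.9 in KO CDAHFD. The labelled diets could be checked with Scd1, a fatty acid desaturase gene, which had at least 1781 CPM in each chow library and at most 116 CPM in each CDAHFD library. All 12 libraries had the Y-linked genes and at most 7 counts of Xist. The clock genes Arntl and Dbp, which peak at opposite times of day, split the libraries within groups. Arntl was above Dbp in 8 libraries and below it in WT chow replicates 3 and 4, KO chow replicate 2 and KO CDAHFD replicate 3. The time of day of collection is not given in the sources used here, and results are given also for the 8 libraries alone where that changed a call. The hepatocyte markers (Alb, Apoa1, Ttr, Hnf4a and Serpina1c), all of them detected, summed to 76080 to 93107 CPM in WT chow and on CDAHFD to 39571 to 49265 CPM in WT and 37458 to 52154 CPM in KO. In KO chow the sums were 66812 and 75200 CPM. Alb alone made up most of each sum, at 59279 to 74134 CPM in WT chow and 55082 and 64173 CPM in KO chow. In bulk liver, fewer cells of a type and less RNA per cell cannot be told apart.

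In KO chow against WT chow, 4 of the 8 genes passed the threshold (adjusted p under 0.05 by edgeR's quasi-likelihood test, adjusted over all genes tested) and all 4 were lower. They were Ghr, Stat5b, Socs2 and Prlr. Of all genes tested, 39.0% passed in this comparison and 17.0% passed as lower. In WT CDAHFD against WT chow, Ghr, Prlr and Stat5b passed, again lower, and the background was 51.1%, with 25.0% lower. The median log2 fold change of the 8 genes was -0.71 in KO chow and -0.29 in WT CDAHFD, beside 0.00 and -0.05 over all genes. The libraries of the groups compared did not overlap in 4 of the 8 genes in the former comparison (50.2% of all genes) and in 3 of the 8 in the latter (55.4% of all genes). These comparisons share the WT chow libraries. With total count in place of TMM the median of all genes moved to 0.40 and 0.51, so changes below are relative to a centre that depends on the scaling. TMM factors were 0.729 to 0.827 in WT chow and 1.03 to 1.26 in all other libraries. Overlap of libraries is given in TMM-scaled CPM and depends on the scaling as well.

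Among the CDAHFD groups, KO against WT, none of the 8 genes passed in edgeR, 3 had an unadjusted p under 0.05 and 0 were called by DESeq2, while 0.357% of all genes passed, 0.0864% as higher and 0.271% as lower. The median was -0.31, beside 0.01 over all genes. In 4 of the 8 genes the libraries of these groups did not overlap (Ghr, Stat5a, Stat5b and Cux2), as in 20.8% of all genes. In KO CDAHFD against KO chow, 1 of the 8 genes (Prlr) was called, and it was lower, beside a background of 6.19%, of which 2.44% were lower and 3.76% higher. In KO chow against WT CDAHFD, Prlr again was the gene called, higher in KO chow, beside 6.12% of all genes, 2.71% higher and 3.42% lower. Libraries did not overlap in 2 of the 8 genes between the KO diets (39.1% of all genes) and in 3 of the 8 between KO chow and WT CDAHFD (48.6% of all genes).

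**Figure D1:**
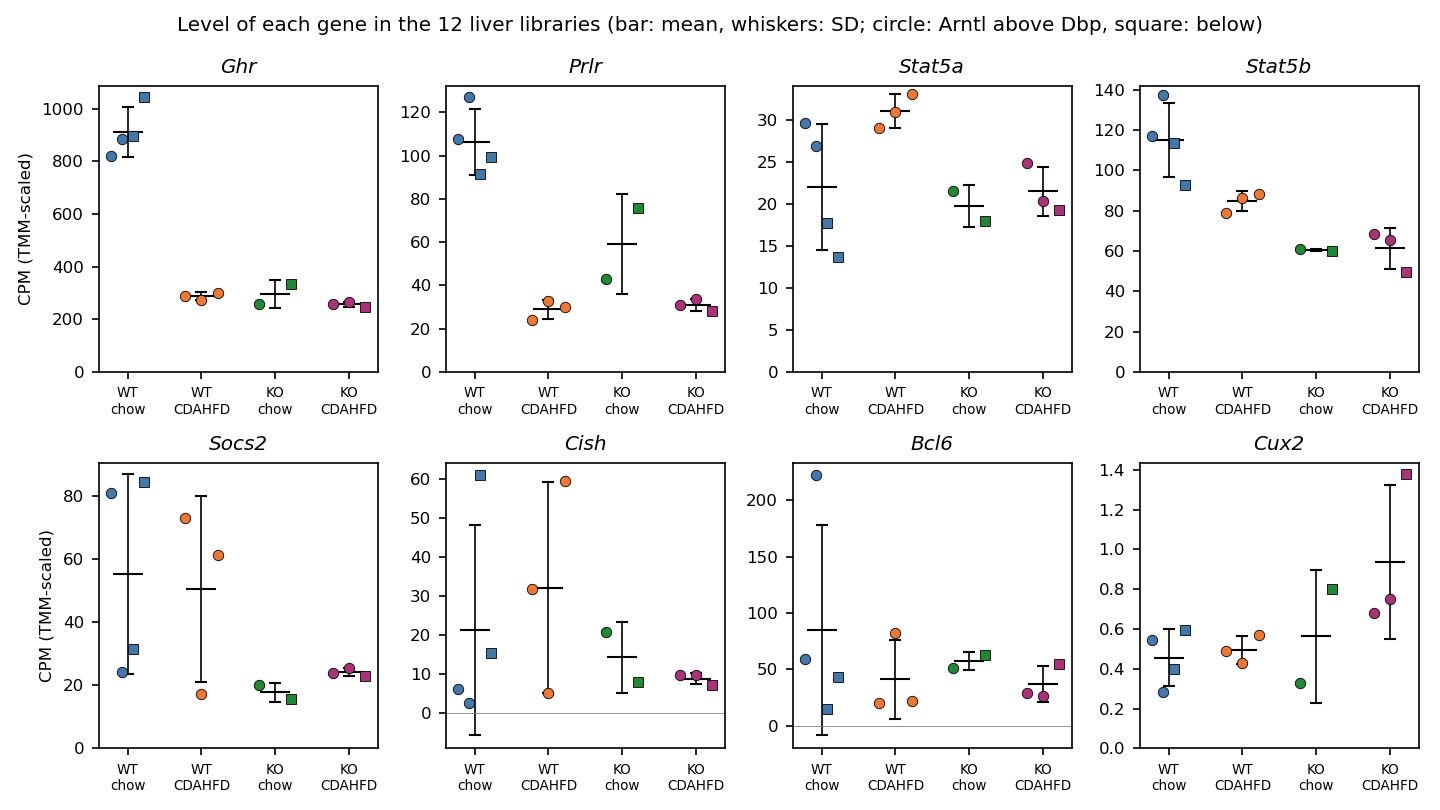
Levels of the 8 genes in CPM (y axis, linear) in the 12 libraries, grouped along the x axis, with group means as bars and SDs as whiskers, which fall below 0 where the SD exceeds the mean. Circles are libraries with Arntl above Dbp and squares those below. The 4 WT chow libraries of Ghr lie between 821 and 1046 CPM and all 8 other libraries between 248 and 333 CPM.

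Ghr encodes the growth hormone receptor (chromosome 15, 3317760 to 3583492, minus strand, GRCm38). It had 821, 887, 896 and 1046 CPM in WT chow. In KO chow it had 258 and 333 CPM, in WT CDAHFD 289, 271 and 301 CPM, and in KO CDAHFD 256, 265 and 248 CPM. Every WT chow library was thus far above every other library, and KO chow overlapped with both CDAHFD groups. Ghr fell 3.09-fold in KO chow (log2 fold change -1.63, SE 0.14, edgeR adjusted p = 3.1e-06) and 3.18-fold in WT CDAHFD (-1.67, SE 0.12, edgeR adjusted p = 3.2e-07). Both calls held in all 20 alternative fits. Within KO, the diet difference was -0.20 (SE 0.14, edgeR adjusted p = 0.42), and within CDAHFD the genotype difference was -0.16 (SE 0.12, edgeR adjusted p = 0.77). The interaction of genotype and diet, the difference between the diet effect in KO and that in WT, was 1.47 (SE 0.19, edgeR adjusted p = 0.00013). By level the groups ran in the order WT chow, KO chow (295 ± 53.1 CPM, SD, n = 2), WT CDAHFD (287 ± 14.9, SD, n = 3) and KO CDAHFD (256 ± 8.16, SD, n = 3), and no neighbours after the first step differed beyond the threshold. Over the same comparisons with WT chow, 4 of 5 hepatocyte markers fell in KO chow (median -0.75) and all 5 fell in WT CDAHFD (median -0.98). Their part in the decrease of Ghr, and in those of the other genes below, was not tested.

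Prlr encodes the prolactin receptor, which signals through JAK2 and STAT5 as well and is higher in female than in male mouse liver (chromosome 15, 10177238 to 10349180, plus strand). WT chow had 108, 127, 91.3 and 99.3 CPM, and KO chow had 43.0 and 75.6 CPM. In WT CDAHFD it had 24.2, 32.7 and 30.1 CPM and in KO CDAHFD 30.8, 33.5 and 28.2 CPM. In TMM-scaled CPM the KO chow libraries lay between those of WT chow and those of both CDAHFD groups, with no overlap. Relative to total counts alone, KO chow overlapped with WT chow. Prlr fell 3.67-fold in WT CDAHFD (log2 fold change -1.87, SE 0.19, edgeR adjusted p = 4.8e-06) and 1.79-fold in KO chow (-0.84, SE 0.21, edgeR adjusted p = 0.0070). Unlike Ghr, Prlr differed between diets in KO (-0.94, SE 0.21, edgeR adjusted p = 0.024) and between KO chow and WT CDAHFD (1.03, SE 0.21, edgeR adjusted p = 0.015). Its interaction was 0.93 (SE 0.28, edgeR adjusted p = 0.032). Together with Ghr it was 1 of the 2 genes of the 8 with an interaction past the threshold, both positive, beside 23.1% of all genes, and 8.63% with a positive one. The WT CDAHFD decrease held in all 20 alternatives. The KO chow decrease was lost with total count scaling (-0.44, edgeR adjusted p = 0.11) and without KO chow replicate 1 (-0.48, edgeR adjusted p = 0.12). The difference between KO diets was lost among the 8 libraries with Arntl above Dbp (-0.42, edgeR adjusted p = 0.21), without KO chow replicate 2 (-0.48, edgeR adjusted p = 0.20), KO CDAHFD replicate 1 (-0.94, edgeR adjusted p = 0.071) or KO CDAHFD replicate 3 (-0.88, edgeR adjusted p = 0.079), with total count scaling (-0.74, edgeR adjusted p = 0.060) and in a fit of these groups alone (-0.94, edgeR adjusted p = 0.075). The difference between KO chow and WT CDAHFD was lost without WT CDAHFD replicate 1 (0.92, edgeR adjusted p = 0.073) or KO chow replicate 2 (0.57, edgeR adjusted p = 0.12) and among the 8 libraries (0.57, edgeR adjusted p = 0.053), where Stat5a (-0.53, edgeR adjusted p = 0.048) and Stat5b (-0.48, edgeR adjusted p = 0.047) were called in its place. The interaction was lost with total count scaling (0.58, edgeR adjusted p = 0.16) and in 6 of the 12 fits that left out a library, those without WT chow replicate 2, WT CDAHFD replicate 1 or 3, KO chow replicate 1, or KO CDAHFD replicate 1 or 2, with values from 0.57 and edgeR adjusted p up to 0.15.

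STAT5 dimers bind the palindrome TTCNNNGAA, which was searched for in the RefSeq promoters of the 8 genes (GRCm38.p6, 250 bases before to 50 after each start). Of all 32851 promoters of that length 8.3% held it and 0.457% held 2 or more. Among the 8 genes, 7 had a promoter in the table, with 14 promoters in all, and 4 of these held a match. Ghr, Stat5a, Stat5b and Cux2 had no match in these windows, and Socs2 had no entry. The peroxisome proliferator response element, searched on both strands as an AGGTCA direct repeat spaced by a single base, was in 0.0396% of all promoters and in 0 of the 14. For Prlr the match lies upstream of its second start, inside the gene and outside its exons (chr15:10223781-10223819, plus strand). It is shown 5′ to 3′ with the match in capitals.
Prlr, second promoter: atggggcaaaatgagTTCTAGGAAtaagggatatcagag

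Stat5b and Stat5a encode close paralogs and lie beside each other on chromosome 11 (Stat5b 100780731 to 100850724, minus strand, and Stat5a 100859351 to 100885169, plus strand). STAT5B is the form that carries most of the growth hormone signal in liver. In WT chow Stat5b had 117, 137, 113 and 92.8 CPM, and in KO chow it had 60.7 and 60.2 CPM. In WT CDAHFD it had 79.1, 86.3 and 88.5 CPM and in KO CDAHFD 68.6, 65.5 and 49.8 CPM. In TMM-scaled CPM no WT chow library overlapped with those of another group, and the WT CDAHFD libraries lay above those of both KO groups. Relative to total counts alone, WT chow overlapped with both CDAHFD groups, though not with KO chow. Stat5b fell 1.91-fold in KO chow (log2 fold change -0.93, SE 0.16, edgeR adjusted p = 0.00069), which held in all 20 alternatives. In WT CDAHFD it was 1.36-fold lower (-0.45, SE 0.14, edgeR adjusted p = 0.018), a decrease that turned to 0.11 with total count scaling (edgeR adjusted p = 0.53) and missed the threshold when WT chow replicate 2 (-0.33, edgeR adjusted p = 0.056) or WT CDAHFD replicate 1 (-0.40, edgeR adjusted p = 0.074) was left out. The medians of the 5 hepatocyte markers were -0.75 and -0.98 in these comparisons, and their part in both decreases was not tested. Between KO and WT on CDAHFD the log2 fold change of Stat5b was -0.47 (SE 0.15, edgeR adjusted p = 0.34). Stat5b differed by -0.48 in KO chow against WT CDAHFD (SE 0.17, edgeR adjusted p = 0.10), called in 5 of 20 alternatives. Its interaction was 0.47 (SE 0.22, edgeR adjusted p = 0.15) and passed the threshold without KO CDAHFD replicate 3 (0.59, edgeR adjusted p = 0.049), with the clock score (0.58, edgeR adjusted p = 0.020) and among the 8 libraries with Arntl above Dbp (0.73, edgeR adjusted p = 0.019).

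Stat5a had 29.7, 26.9, 17.7 and 13.7 CPM in WT chow, with its higher values in the libraries where Arntl was above Dbp. It had 21.5 and 18 CPM in KO chow, 29.1, 31.0 and 33.1 CPM in WT CDAHFD, and 24.8, 20.3 and 19.3 CPM in KO CDAHFD. WT chow overlapped with each of the other groups, and the WT CDAHFD libraries lay above all KO libraries. Relative to total counts alone, the WT CDAHFD libraries also lay above all WT chow libraries. No comparison of Stat5a passed the threshold. The largest difference was -0.65 in KO chow against WT CDAHFD (SE 0.26, edgeR adjusted p = 0.15), called in 3 of 20 alternatives. The log2 fold change of Stat5a was 0.50 in WT CDAHFD against WT chow (SE 0.22, edgeR adjusted p = 0.073) and -0.53 in KO against WT on CDAHFD (SE 0.23, edgeR adjusted p = 0.53). The former passed without WT chow replicate 1 (0.69, edgeR adjusted p = 0.015) or replicate 2 (0.63, edgeR adjusted p = 0.043), with total count scaling (1.04, edgeR adjusted p = 0.0025), without a filter (0.54, edgeR adjusted p = 0.016) and with the clock score as a covariate (0.44, edgeR adjusted p = 0.0096), and was 0.14 among the 8 libraries with Arntl above Dbp (edgeR adjusted p = 0.37). Stat5a shares 72 exon bases with Stat3 on the other strand, which is 1.01% of its exon length, and the libraries do not record strand.

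The ratio of Stat5b to Stat5a, each per kilobase of exon, does not depend on how libraries are scaled. It was 5.08, 6.59, 8.23 and 8.72 in the WT chow libraries. In the other 8 libraries it ran from 3.32 to 4.31. No library of another group reached the lowest WT chow value, which belongs to a library with Arntl above Dbp, as does the next, while the higher pair belongs to those with Arntl below Dbp. The group means were 7.15 ± 1.66 in WT chow (SD, n = 4), 3.51 ± 0.07 in WT CDAHFD (SD, n = 3), 3.97 ± 0.48 in KO chow (SD, n = 2) and 3.67 ± 0.42 in KO CDAHFD (SD, n = 3). The ratio was chosen after its parts were seen and is a description with no test. Reads that fit both paralogs could have been counted for either or for none, which was not tested.

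**Figure D2:**
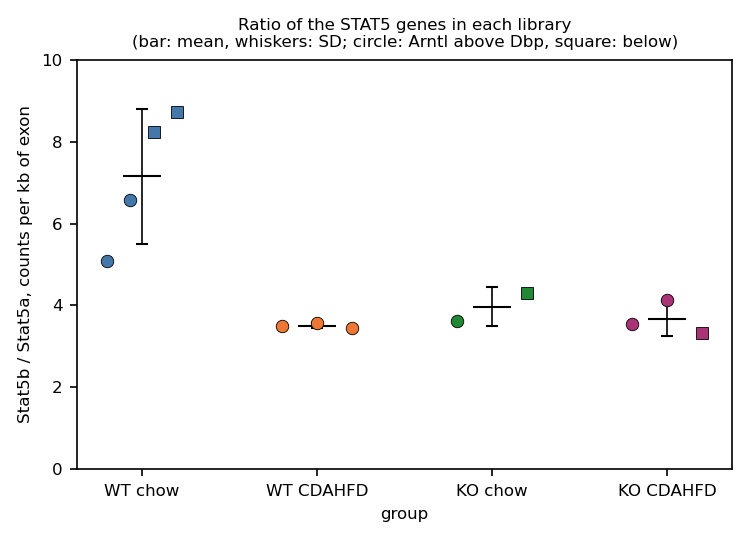
Ratio of Stat5b to Stat5a counts per kilobase of exon (y axis, from 0) in each library by group (x axis), with group means as bars and SDs as whiskers. Circles are libraries with Arntl above Dbp and squares those below. The lowest WT chow ratio is 5.08 and the highest ratio of any other group is 4.31.

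Kinases and adaptors act between the receptors and STAT5. Jak2, the kinase bound to both receptors, had 23.7 to 31.6 CPM in WT chow and 28.0 and 32.1 CPM in KO chow, and CDAHFD libraries had 30.6 to 32.4 CPM in WT and 26.1 to 32.4 CPM in KO. The groups overlapped, with a log2 fold change of 0.13 in KO chow (SE 0.14, edgeR adjusted p = 0.49) and 0.19 in WT CDAHFD (SE 0.12, edgeR adjusted p = 0.20). Of the 13 kinases, adaptors and other STAT genes listed, 2 rose and 2 fell in KO chow (median -0.12, and 0.28 with total count scaling), and 3 rose and 2 fell in WT CDAHFD (median 0.07). Over all genes 22.0% rose and 17.0% fell in KO chow, and 26.1% rose and 25.0% fell in WT CDAHFD, so in each comparison the list had a smaller share of calls than all genes. Sos1, an exchange factor on the path to RAS, fell in both (-0.96 and -0.90, edgeR adjusted p = 0.0028 and 0.0011), as did Sh2b1, a JAK2-binding adaptor (-0.63 and -0.31, edgeR adjusted p = 0.00054 and 0.013). Src, a membrane-bound tyrosine kinase, rose from 2.7 ± 0.53 CPM in WT chow (SD, n = 4) to 12.3 ± 1.58 in KO chow (SD, n = 2) and 15.3 ± 1.87 in WT CDAHFD (SD, n = 3). Lyn, a tyrosine kinase gene of the same family, rose in WT CDAHFD (0.46, edgeR adjusted p = 0.0011). Among 11 negative regulators of cytokine signalling, 3 rose and 1 fell in KO chow (median 0.24) and 3 rose in WT CDAHFD (median 0.25), shares of higher genes near the 22.0% and 26.1% over all genes. Ptpn6, a phosphatase of blood cells that also acts on JAK2, was higher in both (0.77 and 0.98, edgeR adjusted p = 0.00042 and 1.5e-05). Ptpn1, which dephosphorylates JAK2, rose in WT CDAHFD (0.60, edgeR adjusted p = 0.0025), and Socs5 rose in KO chow (0.67, edgeR adjusted p = 0.016), where Socs7 fell (-0.58, edgeR adjusted p = 0.043). The 10 leukocyte markers, all detected, summed to 193 to 373 CPM in WT chow and to 702 and 756 CPM in KO chow, and on CDAHFD to 1065 to 1531 CPM in WT and 1107 to 1163 CPM in KO. Their part in these increases was not tested.

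Socs2 encodes the ubiquitin ligase adaptor that restrains growth hormone signalling (chromosome 10, 95385362 to 95417180, minus strand). It had 80.7, 24.3, 31.4 and 84.3 CPM in WT chow and 72.8, 17.0 and 61.1 CPM in WT CDAHFD. In KO chow it had 19.9 and 15.5 CPM and in KO CDAHFD 24.0, 25.4 and 22.8 CPM. The WT groups thus each held high and low libraries, while the KO libraries were all at or below 25.4 CPM, and those on chow lay below every WT chow library. Relative to total counts alone, KO chow replicate 1 lay above the lowest WT chow library. Socs2 was 3.11-fold lower in KO chow than in WT chow (log2 fold change -1.64, SE 0.58, edgeR adjusted p = 0.040). Leaving out WT chow replicate 1 (-1.37) or 4 (-1.35) or KO chow replicate 1 (-1.80) or 2 (-1.46) ended the call, with adjusted p up to 0.18 in edgeR and the decrease still present. Leaving out KO CDAHFD replicate 1 or 2, which are in neither group compared, left the decrease at -1.63 with an edgeR adjusted p of 0.053. It also ended among the 8 libraries with Arntl above Dbp (-1.39, edgeR adjusted p = 0.24) and with total count scaling (-1.23, edgeR adjusted p = 0.092). Socs2 differed by -0.13 in WT CDAHFD against WT chow (SE 0.47, edgeR adjusted p = 0.84), by -1.06 in KO against WT on CDAHFD (SE 0.51, edgeR adjusted p = 0.59) and by 0.44 in KO between diets (SE 0.57, edgeR adjusted p = 0.70).

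Cish encodes CIS, which blocks STAT5 binding to cytokine receptors (chromosome 9, 107296026 to 107302784, plus strand). It had 6.25, 2.68, 61.0 and 15.5 CPM in WT chow, a 22.8-fold range within a single group. It had 31.8, 5.32 and 59.6 CPM in WT CDAHFD, 20.8 and 8.0 CPM in KO chow, and 9.84, 9.76 and 7.18 CPM in KO CDAHFD. The KO CDAHFD libraries were the most alike, within 1.37-fold, and all groups overlapped with each other. No comparison of Cish passed the threshold, with log2 fold changes of -0.57 in KO chow against WT chow (SE 1.02, edgeR adjusted p = 0.69), 0.59 in WT CDAHFD against WT chow (SE 0.86, edgeR adjusted p = 0.60) and -1.85 in KO against WT on CDAHFD (SE 0.96, edgeR adjusted p = 0.64). The WT CDAHFD difference was past the threshold without WT chow replicate 3 (2.03, edgeR adjusted p = 0.043) and among the 8 libraries with Arntl above Dbp (2.87, edgeR adjusted p = 0.020). The KO chow difference turned to 2.24 in those 8 libraries (edgeR adjusted p = 0.12).

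At the RefSeq start of Cish, inside its exon, 2 STAT5 palindromes lie close together, beginning at bases 1 and 12 counted from the start as 1. The stretch from 5 bases before to 25 bases after the start (chr9:107296654-107296683, plus strand) is shown 5′ to 3′, with matches in capitals, because Cish is the textbook STAT5 target and varied most between libraries of a group.
Cish, first promoter: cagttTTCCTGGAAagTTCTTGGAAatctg

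Bcl6 encodes the repressor that occupies STAT5 sites (chromosome 16, 23965052 to 23988852, minus strand). It had 59.0, 222, 14.5 and 43.5 CPM in WT chow, a 15.3-fold range. It had 19.9, 81.8 and 22.2 CPM in WT CDAHFD, 51.4 and 62.6 CPM in KO chow, and 29.3, 26.7 and 55.0 CPM in KO CDAHFD. All libraries of the other groups lay within the range of WT chow, and no comparison passed the threshold. The log2 fold change was -0.57 in KO chow (SE 0.83, edgeR adjusted p = 0.62) and -1.04 in WT CDAHFD (SE 0.74, edgeR adjusted p = 0.26), each against WT chow. Both turned positive without WT chow replicate 2, to 0.56 and 0.11, and the latter passed the threshold among the 8 libraries with Arntl above Dbp (-1.77, edgeR adjusted p = 0.045). Its promoters held 4 of the 7 STAT5 matches found, 1 upstream of the first start (chr16:23988947-23988985) and 3 upstream of the second, which lies in the first intron (chr16:23981348-23981466). Both stretches are shown 5′ to 3′ on the minus strand, with matches in capitals.
Bcl6, first promoter: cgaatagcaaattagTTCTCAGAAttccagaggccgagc
Bcl6, second promoter: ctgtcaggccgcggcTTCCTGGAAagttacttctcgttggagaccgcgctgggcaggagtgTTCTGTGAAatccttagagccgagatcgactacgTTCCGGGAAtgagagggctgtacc

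Within each of the 4 groups, the library with the highest Bcl6 had the lowest Cish and the lowest Socs2. These were WT chow replicate 2, WT CDAHFD replicate 2, KO chow replicate 2 and KO CDAHFD replicate 3. In WT chow replicate 2, Bcl6 was at 222 CPM, Cish at 2.68 and Socs2 at 24.3 CPM. In WT CDAHFD replicate 2, Bcl6 was at 81.8 CPM, Cish at 5.32 and Socs2 at 17.0 CPM. The order was strict at this end of the range alone: WT chow replicate 3 had the lowest Bcl6 of its group and the highest Cish, but its Socs2 (31.4 CPM) was below that of replicates 1 and 4. In KO CDAHFD the same order rested on small differences, since Socs2 spanned 22.8 to 25.4 CPM. Onecut1, a growth hormone-induced liver transcription factor gene, was lowest in the same library in both WT groups (6.52 and 2.84 CPM) but not in the KO groups. Of the 4 libraries, 2 (KO chow replicate 2 and KO CDAHFD replicate 3) had Arntl below Dbp. The pattern was noticed in these data and is a description, with 2 to 4 libraries per group.

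**Figure D3:**
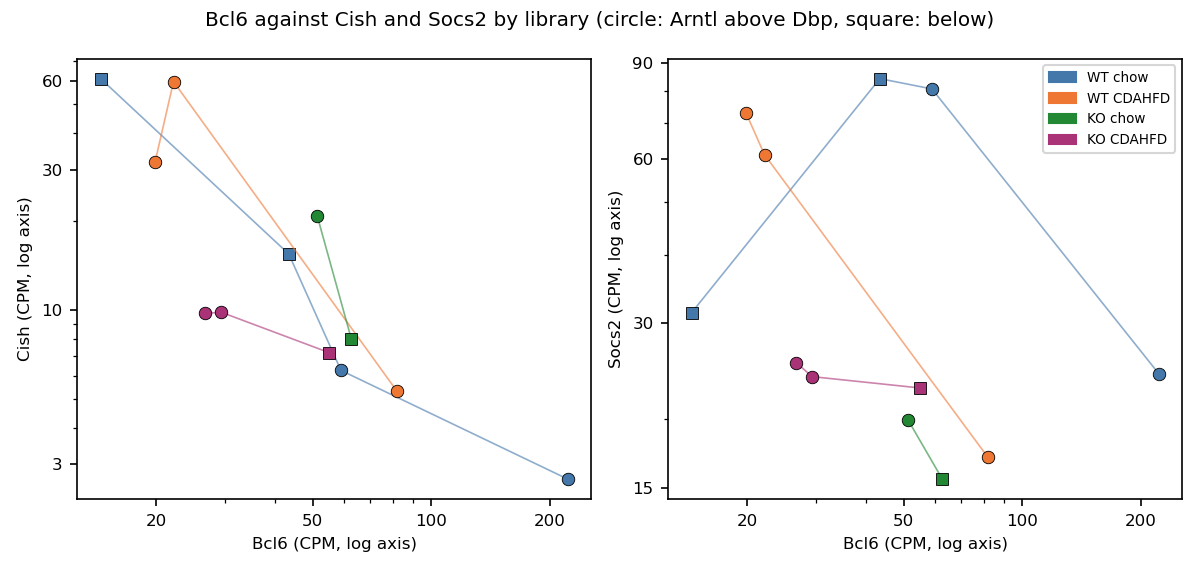
Bcl6 (x axis) against Cish (left) and Socs2 (right), all in CPM on log axes, with a point for each of the 12 libraries, joined within groups in order of Bcl6. Circles are libraries with Arntl above Dbp and squares those below. In each group the rightmost point is the lowest, as for WT chow replicate 2 with 222 CPM of Bcl6 and 2.68 CPM of Cish.

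Cux2, whose product is largely female-specific in mouse liver, was close to the limit of detection (chromosome 5, 121856366 to 122050102, minus strand), with 9 to 58 counts per library. It had 0.54, 0.28, 0.40 and 0.60 CPM in WT chow and 0.49, 0.43 and 0.57 CPM in WT CDAHFD. It had 0.33 and 0.80 CPM in KO chow and 0.68, 0.75 and 1.38 CPM in KO CDAHFD. The KO CDAHFD libraries lay above those of both WT groups, and no comparison passed the threshold. The largest log2 fold change of its 6 comparisons was 0.92 in KO against WT on CDAHFD (SE 0.41, edgeR adjusted p = 0.54).

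**Figure D4:**
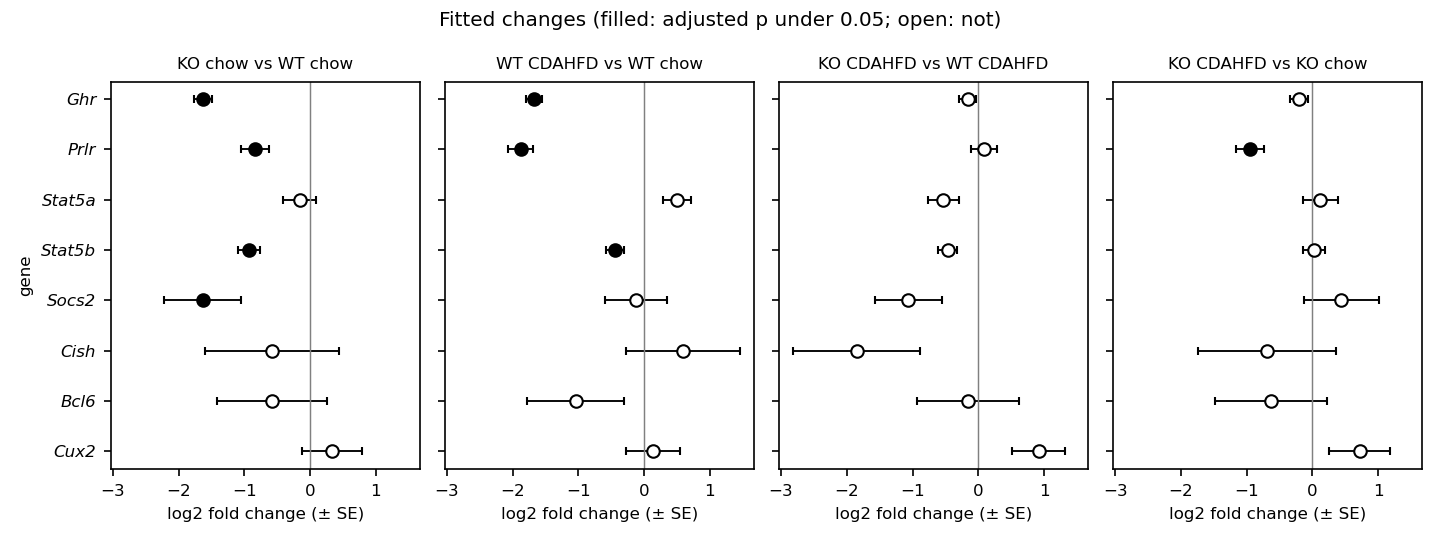
Log2 fold changes (x axis) with SE of the 8 genes (y axis) in 4 comparisons, filled where the edgeR adjusted p was under 0.05. Ghr lies at -1.63 and -1.67 in the comparisons with WT chow, and Stat5b in WT CDAHFD, at -0.45, turned to 0.11 with total count scaling.

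Per kilobase of exon, Ghr was the most abundant of the 8 transcripts and Cux2 the least in every group, whether length was taken as the merged exons or as the longest coding transcript. In WT chow these levels were 101 ± 10.5 and 0.045 ± 0.014 CPM per kilobase of merged exons (SD, n = 4). The order of the other 6 depended on which length was used. Between libraries of a group, Ghr varied least, by at most 1.29-fold, followed by Stat5b (1.48-fold), Prlr (1.76-fold), Stat5a (2.17-fold) and Cux2 (2.45-fold). Socs2, Cish and Bcl6 varied by up to 4.27-fold, 22.8-fold and 15.3-fold.

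The outputs of the axis were followed in gene lists. These lists, like those of kinases and negative regulators above, were written with earlier results of these data known. Their counts are thus a description with no test. Igf1 encodes the growth factor that growth hormone induces in liver, and Igfals the subunit that holds it in the circulation. Igf1 had 862 ± 145 CPM in WT chow (SD, n = 4), 510 ± 34.4 in KO chow (SD, n = 2), 376 ± 12.6 in WT CDAHFD (SD, n = 3) and 339 ± 41.1 in KO CDAHFD (SD, n = 3), and Igfals fell with it (-1.24 in KO chow and -1.64 in WT CDAHFD, edgeR adjusted p = 0.00039 and 7.7e-06). With them, Onecut1, Egfr and Serpina3k made up the 5 growth hormone-induced genes. All 5 fell in KO chow (median -2.02) and 4 fell in WT CDAHFD (median -1.64). Over all genes, 17.0% and 25.0% fell, with medians of 0.00 and -0.05. Of 5 hepatocyte markers, 4 fell in KO chow (median -0.75) and all 5 in WT CDAHFD (median -0.98). Their part in the decreases of this list was not tested. Egfr, the epidermal growth factor receptor gene, fell in both, from 1527 ± 458 CPM in WT chow (SD, n = 4) to 306 ± 27.5 in KO chow (SD, n = 2) and 267 ± 16.2 in WT CDAHFD (SD, n = 3). Onecut1 fell in KO chow (-3.04, SE 0.92, edgeR adjusted p = 0.020) and was not past the threshold in WT CDAHFD (-0.83, SE 0.69, edgeR adjusted p = 0.34), where its libraries split as those of Socs2 did.

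Of 16 male-biased liver genes, 15 fell in KO chow (median -2.99) and 15 fell in WT CDAHFD (median -3.21), beside 17.0% and 25.0% of all genes lower and medians of 0.00 and -0.05. Hsd3b5, a steroid dehydrogenase gene of male liver, had 478, 554, 576 and 741 CPM in WT chow and between 0.24 and 7.69 CPM in all other libraries. Between KO and WT on CDAHFD, 2 of the 16 passed the threshold as lower, beside 0.271% of all genes. A positive interaction passed the threshold in 11 of the 16, beside 8.63% of all genes. Of 28 female-biased genes, 22 were tested, of which 14 rose and 2 fell in KO chow and 13 rose and 4 fell in WT CDAHFD, beside 22.0% and 26.1% of all genes higher and 17.0% and 25.0% lower. Their medians were 2.45 and 1.55, or 2.19 and 1.54 with the genes that had no count in WT chow set at the bound that 3 counts over the group allow. Cyp2a4, a female-biased cytochrome P450 gene with a close paralog, had 0.04 to 0.37 CPM in WT chow, 4.84 to 6.95 in WT CDAHFD, 68.8 and 304 in KO chow and 28.1 to 147 in KO CDAHFD. It was the female-biased gene called between KO and WT on CDAHFD (log2 fold change 3.55, SE 0.65, edgeR adjusted p = 0.044). Ntrk2, a neurotrophin receptor gene, rose from 1.28 ± 1.25 CPM in WT chow (SD, n = 4) to 36.5 ± 15.6 in KO chow (SD, n = 2) and 34.4 ± 3.15 in WT CDAHFD (SD, n = 3). Atp6v0d2, a proton pump subunit gene that macrophages also express, had the largest increase of the named genes of this list in WT CDAHFD, from 0.72 ± 0.57 CPM in WT chow (SD, n = 4) to 52.1 ± 7.81 CPM (SD, n = 3), with 9.78 ± 3.18 CPM in KO chow (SD, n = 2). Marker sums of leukocytes, cholangiocytes and stellate cells were also higher in KO chow and WT CDAHFD than in WT chow. That of 5 endothelial markers was not, at 170 to 264 CPM in WT chow, 155 and 230 CPM in KO chow and 112 to 153 CPM in WT CDAHFD. The leukocyte sums are given above. The sum of 5 cholangiocyte markers was 46.0 to 79.4 CPM in WT chow, 165 and 288 CPM in KO chow and 358 to 578 CPM in WT CDAHFD, and that of 5 stellate cell markers was 151 to 221, 592 and 686, and 702 to 756 CPM in the same groups. Spp1 alone made up most of the cholangiocyte sum, at 39.2 to 59.0 CPM in WT chow, 140 and 251 CPM in KO chow and 314 to 525 CPM in WT CDAHFD. Of the 5 cholangiocyte markers, 4 rose in KO chow and 5 in WT CDAHFD. Of the 5 stellate cell markers, 2 rose in each comparison and 0 fell. All of these markers were detected, and their part in the increases was not tested. Cyp17a1, a steroid hydroxylase gene, moved in opposite directions, to a log2 fold change of 2.44 in KO chow (edgeR adjusted p = 0.0010) and -2.02 in WT CDAHFD (edgeR adjusted p = 0.0028), and Cyp2c40 fell in both (-5.00 and -5.77, edgeR adjusted p = 0.0011 and 8.3e-05).

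Genes that rise in livers lacking growth hormone signalling or STAT5 include those for lipid uptake. Of 10 such genes listed, 5 rose in KO chow and none fell (median 1.17), and 4 rose and 3 fell in WT CDAHFD (median 0.68). The background over all genes was 22.0% higher and 17.0% lower in KO chow, and 26.1% higher and 25.0% lower in WT CDAHFD, and the share of lower genes of the list in WT CDAHFD was near it. The sum of the leukocyte markers was higher in both groups as well, as given above, and its part in these increases was not tested. Cd36, a fatty acid transporter gene, had 23.6 ± 5.55 CPM in WT chow (SD, n = 4), 154 ± 43.0 in KO chow (SD, n = 2) and 437 ± 76.2 in WT CDAHFD (SD, n = 3). Lpl, the lipoprotein lipase gene, rose by 3.34 in KO chow and 4.41 in WT CDAHFD on the log2 scale (edgeR adjusted p = 2.6e-06 and 1.2e-07). Scd1 was not past the threshold in KO chow (-0.32, SE 0.44, edgeR adjusted p = 0.60) and fell in WT CDAHFD (-5.87, SE 0.50, edgeR adjusted p = 1.0e-06). Of 12 other cytokine receptor genes that signal through STAT5, 10 were tested, and 7 rose in KO chow, where 1 was lower, and 7 in WT CDAHFD, where 2 were lower, beside the same background, which the shares of lower genes did not exceed. Il7r rose by 2.09 and 4.55, Il2rg by 1.79 and 1.78, and Csf2ra by 1.65 and 2.88 on the log2 scale in KO chow and WT CDAHFD, with edgeR adjusted p of at most 0.00020. Lepr, the leptin receptor gene, fell in WT CDAHFD (-1.23, edgeR adjusted p = 0.0049). Most of these receptors are those of blood cells, and the sum of the leukocyte markers given above was higher in the same groups. Of the 10 markers, 6 rose and 0 fell past the threshold in each comparison. Clec4f, a large part of the sum in WT chow (102 to 168 CPM), had 204 and 246 CPM in KO chow and 84.5 to 111 CPM in WT CDAHFD. Lyz2 alone made up 755 to 1150 CPM of the sum in WT CDAHFD. The lymphocyte markers Cd3e, Cd79a and Ms4a1 each had at most 2.06 CPM in any library. The part of blood cells in these increases was not tested.

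**Figure D5:**
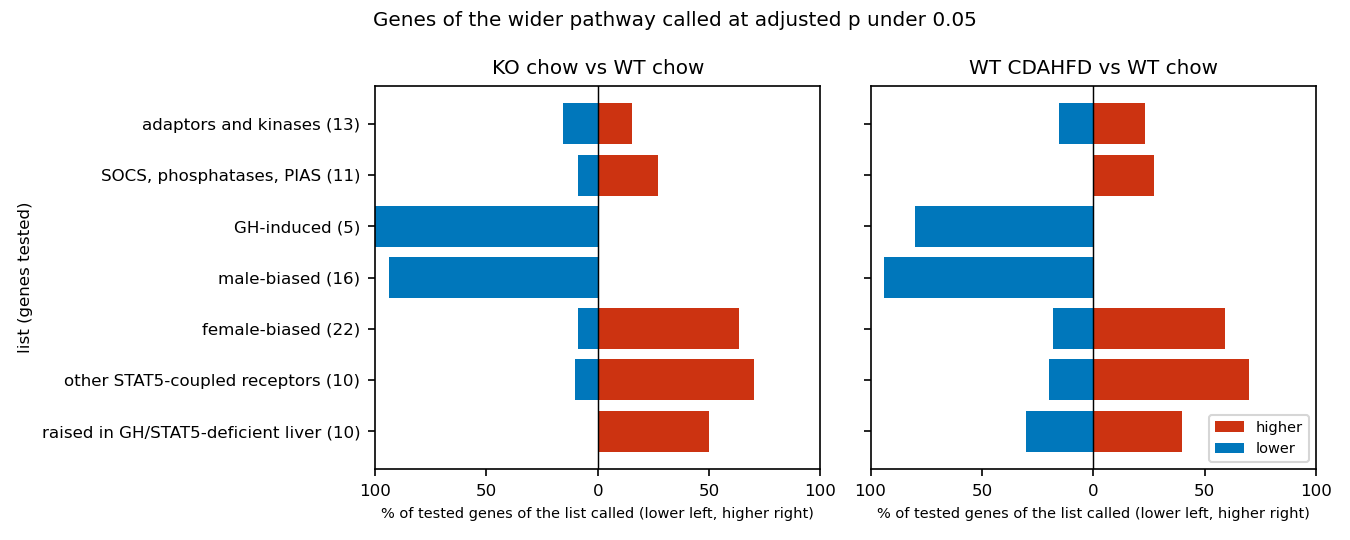
Share of the tested genes of each list (y axis, number tested in brackets) called higher (right) or lower (left) in KO chow (left panel) and WT CDAHFD (right panel) against WT chow (x axis, percent). The growth hormone-induced and male-biased lists lie to the left in both panels, with 5 of 5 and 15 of 16 genes lower in KO chow. Of all genes tested, 17.0% were called lower in that comparison.

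Genes with the pattern most like each of the 8 were ranked by Pearson r of log2 CPM over the 12 libraries, leaving out genes whose mean count was under 50. The libraries share groups and scaling, so these are descriptions. For Ghr they were Cyp4v3 (r = 0.995), Masp2 (r = 0.994) and Cat (r = 0.993), a fatty acid hydroxylase, a complement protease and catalase. Cat had 4535 ± 505 CPM in WT chow (SD, n = 4) and group means of 1536 to 1844 CPM elsewhere. For Prlr they were Chic1 (r = 0.976), Slc6a13 (r = 0.973) and Gpr155 (r = 0.972), for Stat5b Def8 (r = 0.969), Aldh9a1 (r = 0.964) and Acat3 (r = 0.958), and for Stat5a Eml6 (r = 0.984) and Zc3hav1 (r = 0.936). The genes that varied widely within groups had more distant neighbours. Those of Socs2 were E2f8 (r = 0.837), Onecut1 (r = 0.810) and Slc25a30 (r = 0.806), those of Cish Resf1 (r = 0.892), Rnf19b (r = 0.864) and Foxq1 (r = 0.830), and those of Bcl6 Arrdc4 (r = 0.859), Nostrin (r = 0.849) and Pggt1b (r = 0.833). Cux2 was nearest to Spaca6 (r = 0.889), Lama4 (r = 0.844) and Fgfr1 (r = 0.834).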

How the data were processed

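The authors sequenced poly-A selected, non-directional libraries of mouse liver, checked reads with FastQC 0.11.5, aligned them to GRCm38 with STAR 2.7.3a and deposited unnormalized read counts per Ensembl gene. The counting program and annotation release are not given in the sources used here. Symbols and positions came from GENCODE M21, which held 52081 (94.08%) of the identifiers. Counts were analysed with edgeR 4.0.16 in R 4.3.3 (filterByExpr, TMM, glmQLFit with a mean per group over the 12 libraries, glmQLFTest, Benjamini-Hochberg over 17358 genes, adjusted p under 0.05), after a test on simulated data. TMM factors ran from 0.729 to 1.26. SE is the size of the log2 fold change divided by the square root of F. A count of 0 allows 3 counts, for counting error only. DESeq2 1.42.0, other scalings and filters, single libraries left out, a clock score and the replicate number were tried as alternatives. The members and lists were chosen with earlier results of these data known. From each list and each comparison with WT chow, the 2 called genes with the largest increase and decrease were named, with Ppara, Igf1, Igfals, Jak2 and Onecut1 and the 3 genes of likest pattern per member, of which a few are not reported here. The libraries with Arntl above Dbp and the second transcript length were added after seeing the data. Promoters are RefSeq's (GRCm38.p6).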

Additional observations from a re-analysis of the deposited data

Results flagged for a closer look

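The effect of diet on Ghr differed between genotypes, with an interaction of 1.47 on the log2 scale (edgeR adjusted p = 0.00013), and so did that on Prlr, with 0.93 (edgeR adjusted p = 0.032). The call of the Prlr interaction was lost in several alternatives, as given above, among them total count scaling, whereas that of Ghr was kept in all of them. Ghr was lower in 3 of 3 WT CDAHFD libraries than in all WT chow libraries and overlapped between the KO diets, whereas Prlr was lower on CDAHFD in both genotypes. In WT chow, the group with enough libraries for this check, 38 genes were looked at for a library far from the others and 2 stood out, where chance gives about 1 in 20. Ptpn6 was lowest in WT chow replicate 4, at 21.6 CPM against a median of 27.7 CPM in the group. Moxd1, a male-biased gene, was highest in the same library, at 125 CPM against a median of 5.03 CPM. In all other groups Moxd1 had at most 0.08 CPM. The causes were not tested.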

How the results depend on the processing

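Of the fits of single genes under alternatives, 868 kept direction and side of the threshold, 29 lost and 20 gained a call, and 35 turned direction, none of the turned values being past the threshold. The cause was not tested. For the gene lists, the number of genes called stayed at or near that of the main fit in 727 cases and moved further in 106. In KO chow against WT chow, total count scaling left 2 of the 8 genes called, as did leaving out a library at the lowest (range 2 to 4). In WT CDAHFD against WT chow the libraries with Arntl above Dbp gave 5. In KO CDAHFD against KO chow, 0 were called with total count scaling, among the groups compared alone and with Arntl above Dbp, and 0 to 1 with a library left out. In KO chow against WT CDAHFD, 2 were called with total count scaling, without a filter and by DESeq2, and 3 among the groups compared alone and with the clock score. Leaving out a library gave 0 to 1. Over all genes the main fit called 1063 of 17358. In the order of the settings named, the calls were 1267 of 17358, 1397 of 30104, 2062 of 15580, 1985 of 16788 and 2334 of 17358. The interaction had 1 with total count scaling and 1 to 3 with a library left out. Calls over all genes moved with the settings too, so these counts are not results about the 8 genes alone. With total count scaling they were 8186 in KO chow against WT chow and 4944 for the interaction, beside 6763 and 4011 in the main fit.

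Total count scaling turned Stat5a (0.23) in KO chow and Stat5b (0.11) and Socs2 (0.42) in WT CDAHFD, each against WT chow, and Ghr in KO CDAHFD against KO chow (0.0032) and in KO chow against WT CDAHFD (-0.11). The clock score turned Cish in KO chow (0.29) and Bcl6 in KO against WT on CDAHFD (0.31). The libraries with Arntl above Dbp turned Cish (2.24) and Cux2 (-0.31) in KO chow, Ghr in KO CDAHFD against KO chow (0.013), and Ghr (-0.15) and Cux2 (-0.59) in KO chow against WT CDAHFD. Leaving out a library turned the following. In KO chow against WT chow, Stat5a ran from -0.32 to 0.029, Cish from -1.40 to 0.86, Bcl6 from -0.92 to 0.56 and Cux2 from -0.45 to 0.85. In WT CDAHFD against WT chow, Socs2 ran from -0.49 to 0.28, Cish from -0.20 to 2.03, Bcl6 from -2.01 to 0.11 and Cux2 from -0.016 to 0.30. In KO against WT on CDAHFD, Bcl6 ran from -0.56 to 0.82 and Prlr from -0.026 to 0.18. In KO CDAHFD against KO chow, Stat5a ran from -0.0060 to 0.28, Stat5b from -0.069 to 0.15 and Cish from -1.22 to 0.17. In KO chow against WT CDAHFD, Ghr ran from -0.16 to 0.21 and Cux2 from -0.60 to 0.68, and the Bcl6 interaction from -0.70 to 1.39. With the longest coding transcript, levels per kilobase in WT chow moved to 219 CPM for Ghr, 5.66 for Stat5a, 24.8 for Socs2 and 10.7 for Prlr.

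Whether the replicate numbers pair the mice is not stated in the sources used here. In their deviations within groups, same-numbered libraries of different groups correlated at -0.242 to 0.266, and 3 of 15 pairs were over 0.1. This cannot settle the question, since the 2 KO chow libraries deviate as mirror images. KO chow replicate 2 is also numbered 3 in the labels. With a replicate block, 3 genes were called in KO chow against WT chow, where Socs2 was lost (-1.19, edgeR adjusted p = 0.076), and Cish in KO chow (0.75), Socs2 in WT CDAHFD (0.15) and Bcl6 in KO against WT on CDAHFD (0.35) turned.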
